A study of Drosophila melanogaster with 52 samples.

Results

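The genes described here are the CR genes of Drosophila melanogaster, the genes that carry a CR number in place of a name because their RNA was not predicted to encode a protein. Of 16680 genes in the count tables, 1983 had a CR name, and 92 of these reached at least 5 CPM (reads of a gene scaled to a common library total) as the mean of both libraries in at least 1 wild-type group. The choice therefore rests on wild-type levels, which are given below as a description. The last genes inside this limit were CR44206 at 5.06 CPM, CR45481 at 5.17 CPM and CR31429 at 5.27 CPM in their highest wild-type group, and the first genes outside it were CR44034 at 4.99 CPM, CR43460 at 4.89 CPM and CR44833 at 4.86 CPM. Most CR genes were far lower: 458 had no count in any wild-type group, 1261 stayed above 0 and under 1 CPM, and 172 lay from 1 to under 5 CPM.

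Total RNA was sequenced from pools of hand-selected embryos in 52 libraries, which form 26 groups of 2 biological replicates, at 0.5-1 h, 1-1.5 h and, for some genotypes, 2.5-3 h. Each of the 5 experiments had w1118 wild-type embryos of their own as controls. In the first, GFP-tagged dPCIF1 was mislocalized to lipid droplets by a nanobody fused to Jabba (the JabbaTrap) at 0.5-1 h and 1-1.5 h. In the second, M-Z+ HIRA mutant embryos were sampled at all 3 time points. They lack the maternal supply of HIRA, a chaperone that deposits the histone variant H3.3, and Z+ labels them as zygotically functional. The study cites a role of HIRA in forming the diploid zygote. The zygotic allele and the ploidy of the embryos were not determined here. In the third, M-Z+ H3.3 mutant embryos lacked maternal H3.3 through mutations in both H3.3A and H3.3B. They were also labelled Z+, were sampled at 3 time points and came from the mutant females that survive to adulthood. In the fourth, HIRA alone or HIRA together with dPCIF1 was overexpressed from UASp transgenes with a maternal GAL4 driver, and both genotypes shared the same wild-type libraries. In the fifth, endogenous dPCIF1 carried the substitutions S111A and S115A. At the last time point the study describes many HIRA mutant embryos as arrested or delayed, so stage and genotype cannot be told apart there. The study adds that some of them likely did not divide their nuclei at all, so the same limit may hold at the earlier time points. In pooled embryos, fewer expressing nuclei and less RNA per nucleus cannot be told apart either.

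An early fly embryo runs at first on RNA that the mother placed in the egg, and its own genome is switched on in steps during the rapid nuclear divisions and broadly as the embryo becomes cellular. Long noncoding RNAs (lncRNAs) join this programme in several ways. Some are loaded maternally, others are transcribed from the embryo's genome, several are the primary transcripts from which microRNAs are cut, and antisense RNAs run across a coding gene on the opposite strand. Their levels therefore report on both the clearance of maternal RNA and the onset of transcription.

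The label "long noncoding" held for 88 of the 92 genes. In the RefSeq annotation 58 were lncRNAs and 30 antisense RNAs, 2 were hairpin RNAs (CR32205 and CR32207, of the kind that is cut into endogenous small interfering RNAs), and 1 was a pseudogene (CR43727) and 1 a pseudogene of 18S ribosomal RNA (CR41602). For the text the genes were grouped by structure: 11 microRNA hosts, 30 antisense RNAs, 12 lncRNAs that overlap exon sequence of a coding gene (10 on the same strand and 2, CR44779 and CR45233, only on the opposite strand), 35 lncRNAs that overlap none, and the 4 pseudogenes and hairpin RNAs. The X chromosome held 20, arm 2L 11, 2R 17, 3L 18, 3R 23 and chromosome 4 held 3. RefSeq names 4 of them: marge (CR43432), mimi (CR31451), cherub (CR43283) and dntRL (CR44101).

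The libraries held about 15073500 to 31579900 estimated counts, with a median of about 23610100, and the 92 genes took 0.0655% to 0.630% of the counts as group means. No replicate pair agreed within sampling noise, so every library was counted. RNA of dPCIF1 (CG11399) stood at 78.5 and 76.6 against 389 and 398 normalised CPM in the S111A S115A embryos at 0.5-1 h. Hira in the M-Z+ HIRA mutant libraries was 73.6 and 73.0 against 176 and 165 normalised CPM at 0.5-1 h but 20.4 and 18.3 against 10.8 and 10.01 at 2.5-3 h; the deposited tables do not separate maternal from zygotic Hira RNA. Marker sums also differed between groups that should match. The 3 larval cuticle genes Lcp65Ag1 to Lcp65Ag3 summed to 135 and 133 normalised CPM in the wild type of the HIRA experiment at 0.5-1 h and to 272 and 289 at 2.5-3 h, while all 3 were at 0 in every HIRA mutant library. In the H3.3 mutant at 2.5-3 h they summed to 350 and 369 against 13.3 and 12.6 in its wild type. The 5 eggshell genes of ovarian follicle cells summed to 126 and 134 normalised CPM in the H3.3 mutant at 1-1.5 h, with all 5 at 0 in its wild type, and ranged from 0.0354 to 94.1 in the libraries of the other experiments. These signals move with groups, and their part in the results below was not tested.

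In wild-type embryos the CR genes were mainly late RNAs. The highest wild-type group was at 2.5-3 h for 63 of the 92, at 1-1.5 h for 11 and at 0.5-1 h for 18. By fixed limits on CPM in both 3-point wild-type courses, 28 were late-only (under 2 CPM at 0.5-1 h and at least 5 CPM at 2.5-3 h), 17 were present early and kept, 7 were present early and cleared to less than 1/2 of that level, and 40 fitted none of these.

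**Figure D1:**
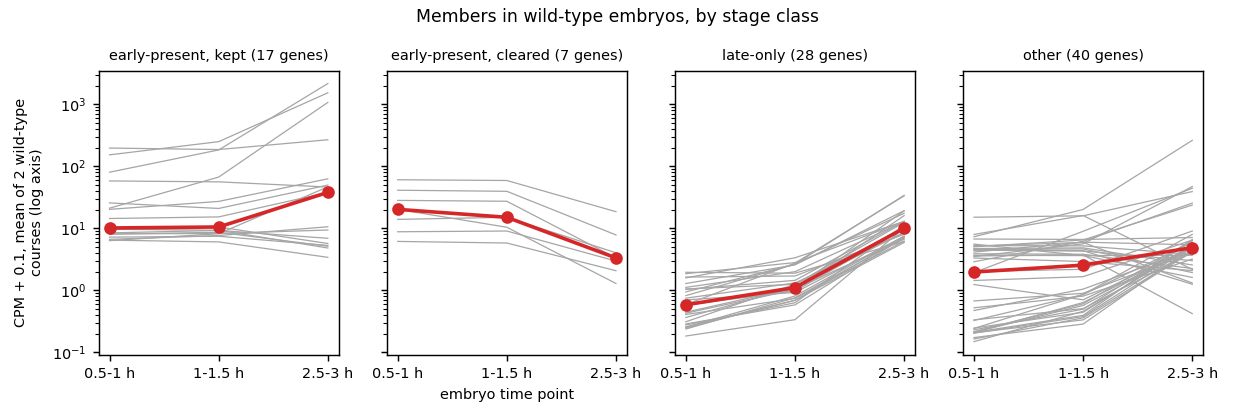
CPM of each of the 92 genes (grey lines, with 0.1 added, log axis) at 3 embryo time points as the mean of the wild-type courses of the HIRA and H3.3 experiments, split by stage class; red points and lines give the class median. The 28 late-only genes climb at 2.5-3 h, and the 7 cleared genes drop.

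A few genes supplied most of this RNA. On the CPM scale the highest wild-type means were 2533 for CR41602, 1557 for CR42862, 1310 for CR43887, 532 for CR34335 and 274 for CR43432. Per length, as deposited TPM (transcripts scaled for length and library), CR34335 led with 6816 and CR43887 followed with 4068, against a median of 14.3 for the 92 genes. CR41602 had 414 TPM, but its length in the files, 6026 bases, exceeds the 1975 bases of the annotated gene, and in libraries depleted of ribosomal RNA its counts can include reads left over from 18S ribosomal RNA. CR42862 shares exon sequence with CG33229, so reads between them are uncertain.

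Because wild-type levels chose the genes, tests between stages were counted only over genes that also reach 5 CPM in the wild type of another experiment. A gene was called at an adjusted p below 0.05 and a log2 fold change beyond 1 in edgeR's quasi-likelihood test. From 0.5-1 h to 2.5-3 h, 58 of 92 rose and 14 fell in the wild type of the H3.3 experiment, against 29.7% and 23.3% of all genes tested. In the wild type of the HIRA experiment 44 of 73 rose and 15 fell, against 37% and 23.8%. From 1-1.5 h to 2.5-3 h, 59 of 92 rose and 13 fell in the H3.3 wild type (30.3% and 21.3% of all genes) and 43 of 73 rose and 16 fell in the HIRA wild type (35.4% and 22.2%). From 0.5-1 h to 2.5-3 h the median log2 change of these genes was 2.98 and 2.17 in the same order.

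The step from 0.5-1 h to 1-1.5 h was smaller and varied among the wild types. It raised 30 of 91 genes in the mislocalization experiment (14% of all genes), 26 of 73 in the HIRA experiment (8.99%), 14 of 92 in the H3.3 experiment (5.62%), 16 of 89 in the overexpression experiment (6.23%) and 2 of 85 in the S111A S115A experiment (6.57%). It lowered none of them in 4 experiments and 1 in the overexpression experiment, against 0.667%, 2.96%, 1.58%, 1.91% and 1.04% of all genes in the same order. In 3 of these comparisons the count depended on 1 library: 17 genes without replicate 1 of the HIRA wild type at 0.5-1 h, 9 without replicate 2 of the H3.3 wild type at 1-1.5 h, and 9 without replicate 2 of the overexpression wild type at 0.5-1 h.

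Wild-type groups of the same time point also differed from each other. Among genes with a median of at least 2 normalised CPM, the highest group was more than 2 times the lowest for 27 of 44 genes at 0.5-1 h and 21 of 48 at 1-1.5 h, when 5 wild types could be compared, and for 14 of 85 at 2.5-3 h, when only 2 could. CR44999, which shares exon sequence with Myc, varied 15.02-fold at 1-1.5 h. Each genotype was therefore also set against the wild types of the other experiments, and where that changes a count it is given beside the result.

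Among the genotype comparisons, 86 of the 92 genes were called in at least 1 of 16, and 24 in at least 8. Shares over all genes were not counted for these numbers, nor for the genes shared between time points below. They are therefore a description and do not set the CR genes apart from other genes. The plot of calls by comparison sets the shares beside those of all genes.

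**Figure D2:**
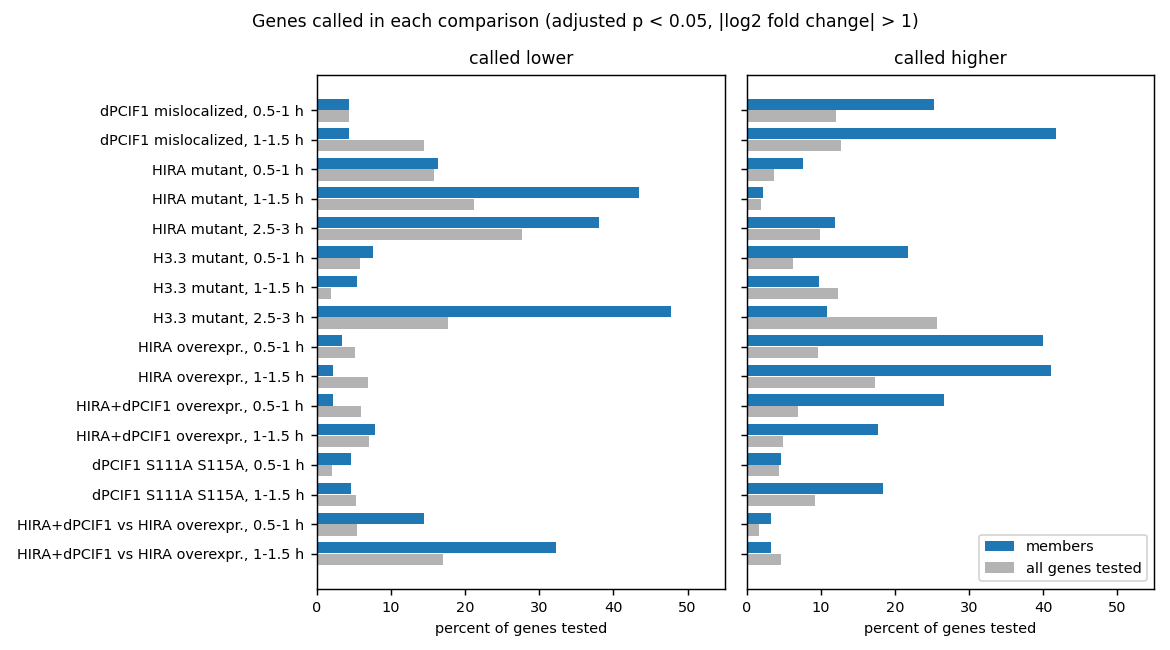
Percent of genes called lower (left) and higher (right) in each genotype comparison, for the CR genes (blue) and all genes tested (grey). The CR genes reach 41.8% higher after dPCIF1 mislocalization at 1-1.5 h, 43.5% lower in HIRA mutants at 1-1.5 h and 47.8% lower in H3.3 mutants at 2.5-3 h.

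Mislocalization of dPCIF1 went with higher levels of many CR genes. At 1-1.5 h, 38 of 91 rose and 4 fell, against 12.7% and 14.5% of all genes tested, and the median log2 change was 0.66 against -0.013 for all genes. Late-only genes made up 19 of the 38. At 0.5-1 h, 23 of 91 rose and 4 fell, against 12% and 4.34% of all genes. That early count depended on the control: with the other wild types, 5 rose and 7 fell, whereas at 1-1.5 h 36 rose and 7 fell. Markers of later embryonic cells (Mhc, elav, repo, nSyb and Hml) summed to 36.4 and 37.0 normalised CPM in mislocalized embryos at 0.5-1 h against 3.68 and 3.77 in the wild type, and the larval cuticle genes to 16.3 and 17.5 against 0, and their part in the count was not tested. Both time points had 12 genes in common that rose and 2, CR42861 and CR43144, that fell. In the mislocalized embryos at 1-1.5 h the sum of early zygotic markers (sisA, sc, Kr, ftz, eve and kni) was 355 and 348 normalised CPM, against 40.2 and 42.5 in the wild type.

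CR43887, a single-exon gene on 3L (dm6, 11693135 to 11693661) near Dph1, moved in most experiments. In mislocalized embryos at 1-1.5 h it had 237 and 248 normalised CPM against 30.6 and 32.4. The libraries did not overlap, and the log2 fold change was 2.95 ± 0.05 (SE, n = 2 per group, edgeR adjusted p = 5.38e-18). At 0.5-1 h the values were 18.8 and 16.5 against 4.56 and 3.85, a log2 change of 2.07 that was 0.015 with the other wild types as control.

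CR42861, a 5-exon lncRNA on X (13744928 to 13745476) next to Pdcd4, moved the other way. It had 1.52 and 1.14 normalised CPM in mislocalized embryos at 0.5-1 h against 12.3 and 12.8 in the wild type, and 1.21 and 1.46 against 9.90 and 10.4 at 1-1.5 h. The log2 fold changes were -3.23 ± 0.14 and -2.92 ± 0.14 (SE, n = 2 per group, edgeR adjusted p = 2.44e-12 and 3.46e-12). The gene was also lower in the S111A S115A embryos, at 3.93 and 4.18 against 12.0 and 10.6 at 0.5-1 h, and after HIRA overexpression, at 2.48 and 2.06 against 8.95 and 9.17 at 1-1.5 h. All 8 comparisons of these 3 experiments with wild type called it lower, also with the other wild types as control, and none of the 6 with HIRA or H3.3 mutants called it. CR43144, near Cul2, had 0.913 and 0.869 in mislocalized embryos against 6.32 and 7.41 at 1-1.5 h, a log2 change of -2.94 ± 0.18. Its lower level at 0.5-1 h was not called with the other wild types (-0.48).

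Loss of maternal HIRA went with lower levels, most widely at 1-1.5 h. Only 73 of the 92 genes reach 5 CPM in the wild type of another experiment, and the others were chosen by the control used here, so counts are also given for the 73. At 1-1.5 h 2 of 92 genes rose and 40 fell, against 1.96% and 21.2% of all genes, and 2 and 30 of the 73. The median log2 change of the 73 was -0.74 where the median of all genes was -0.11. At 0.5-1 h 7 rose and 15 fell, against 3.73% and 15.8%, and of the 73, 6 rose and 13 fell. At 2.5-3 h 11 rose and 35 fell, against 9.89% and 27.7%, but of the 73, 11 rose and 22 fell, or 30.1% lower, with all genes at a median of -0.275. The share that fell was thus near that of all genes at 0.5-1 h and, among the 73, at 2.5-3 h. Without replicate 1 of the wild type at 0.5-1 h, 14 genes were called in all at that time point. With the other wild types as control the direction of the counts turned at 0.5-1 h (15 rose and 8 fell) and at 2.5-3 h (21 and 15), but not at 1-1.5 h (10 and 26). Of 28 late-only genes 18 fell and 1 rose at 1-1.5 h; the stage classes were set partly by these control libraries, so their counts in HIRA and H3.3 mutants are a description. The early zygotic markers summed to 87.6 and 85.5 in the mutants at 1-1.5 h against 178 and 177 normalised CPM. In the wild types of the other experiments they summed to between 40.2 and 75.9 at 1-1.5 h, below the mutants. The lower sum in the mutants therefore rests on this control. The later embryonic markers summed to 1.75 and 3.08 against 126 and 126 at 1-1.5 h and to 4.08 and 4.53 against 122 and 123 at 0.5-1 h, while the wild types of the other experiments lay between 25.2 and 47.6 at 1-1.5 h. The larval cuticle genes were at 0 in the mutants against 81.4 and 85.6 at 1-1.5 h. The part of these markers in the counts was not tested.

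At all 3 time points in HIRA mutants, 8 genes were lower: CR31451, CR34335, CR42491, CR43144, CR43459, CR43650, CR43730 and CR43864. The clearest was CR34335, a 2-exon RNA on X (3545750 to 3546110) inside the span of DIP-alpha. It had 10.4 and 15.7 normalised CPM against 189 and 168 at 0.5-1 h, 12.8 and 13.9 against 134 and 135 at 1-1.5 h, and 13.4 and 19.7 against 260 and 223 at 2.5-3 h. All mutant libraries lay below all wild-type libraries, with log2 fold changes of -3.74 ± 0.18, -3.32 ± 0.18 and -3.86 ± 0.18 (SE, n = 2 per group, edgeR adjusted p = 1.22e-07, 1.53e-07 and 1.17e-08). Against the other wild types the differences were -4.48, -4.59 and -4.12. No other genotype called CR34335.

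CR43837, a 3-exon RNA on X (6995882 to 6997799) near Inx2, was low in both mutants at the earlier time points. In HIRA mutants it had 12.3 and 12.0 normalised CPM against 59.7 and 69.4 at 0.5-1 h, and 10.3 and 10.1 against 66.6 and 65.7 at 1-1.5 h. In H3.3 mutants it had 11.1 and 12.5 against 58.0 and 55.3, and 9.72 and 8.75 against 53.6 and 55.2. The log2 fold changes ran from -2.27 to -2.70 in these 4 comparisons (largest edgeR adjusted p = 1.80e-08). At 2.5-3 h, when the wild-type level had dropped to between 17.7 and 20.4, the differences were -0.72 and -0.92 and were not called. Hira itself lies on X at 7722119 to 7725917 and His3.3B at 9152523 to 9156669, so these genes share a chromosome with the mutated loci. The part of the chromosome that came with each allele was not tested.

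Loss of maternal H3.3 gave different pictures at the 3 time points. At 0.5-1 h 20 of 92 genes rose and 7 fell, against 6.2% and 5.79% of all genes. With the other wild types as control 16 rose and 12 fell, so the excess of higher calls was smaller. At 1-1.5 h 9 rose and 5 fell, against 12.3% and 1.87%, and with the other wild types 8 rose and 15 fell. At 2.5-3 h 10 rose and 44 fell, against 25.7% and 17.7%, so the share that fell was larger than among all genes and the share that rose was smaller. The median log2 change then was -0.94. All 23 late-only genes that were called fell, of 28 tested, and 14 of 30 antisense RNAs fell. CR43432 (marge) had 57.7 and 56.1 normalised CPM against 295 and 233 at 2.5-3 h, a log2 change of -2.22 ± 0.09 (SE, n = 2 per group, edgeR adjusted p = 1.02e-12), and CR43887 had 238 and 260 against 875 and 880 (-1.82 ± 0.06). At 0.5-1 h CR43887 was instead higher, at 34.7 and 36.3 against 10.4 and 10.2.

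Most early-present genes that wild type cleared were higher in each mutant at 2.5-3 h. Of the 7, 5 were called higher in HIRA mutants and 4 in H3.3 mutants, against 9.89% and 25.7% of all genes, and none lower. The log2 change was above 0 for 6 of the 7 in HIRA mutants and 5 of the 7 in H3.3 mutants. CR43837 was below 0 in both. The class was set by low levels in these same control libraries, which favours higher mutant values, so the counts are a description. CR32027, inside the span of Indy, had 5.20 and 5.29 normalised CPM against 0.999 and 0.699 in HIRA mutants, a log2 change of 2.59 ± 0.18 (n = 2 per group, edgeR adjusted p = 1.99e-07), and 3.84 and 4.59 against 1.46 and 1.73 in H3.3 mutants. CR30055, inside the span of Sin3A, had 20.6 and 18.7 against 8.62 and 6.99 in HIRA mutants, and 22.7 and 23.7 against 6.22 and 9.56 in H3.3 mutants. The libraries of mutant and wild type did not overlap in any of these pairs. The maternal markers bcd, osk, nos, gcl and smg moved in the same direction, summing to 2615 and 2529 against 342 and 330 normalised CPM in HIRA mutants and to 3117 and 3026 against 562 and 588 in H3.3 mutants.

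CR45102, a single-exon RNA on X (3701857 to 3703285) beside Mnt, was the only gene higher at all 3 time points in H3.3 mutants. It had 30.7 and 30.6 normalised CPM against 14.2 and 11.7 at 0.5-1 h, 36.1 and 30.3 against 16.6 and 15.9 at 1-1.5 h, and 18.1 and 18.0 against 2.78 and 3.05 at 2.5-3 h. In HIRA mutants its direction changed, at 30.4 and 31.5 against 2.00 and 4.51, then 1.01 and 3.28 against 16.7 and 16.3, and then 15.7 and 8.43 against 1.33 and 1.40. The log2 fold changes in HIRA mutants were 3.33 ± 0.35, -2.81 ± 0.39 and 3.12 ± 0.49 (SE, n = 2 per group, edgeR adjusted p = 3.39e-05, 0.000189 and 0.000153). CR32205, a hairpin RNA on 3L, was the only gene lower at all 3 in H3.3 mutants, with 1.80 and 1.40 against 6.40 and 6.33 at 0.5-1 h (-1.98 ± 0.18). It was higher after overexpression, at 14.0 and 13.1 with HIRA and 17.3 and 16.3 with HIRA and dPCIF1 against 4.80 and 5.75.

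**Figure D3:**
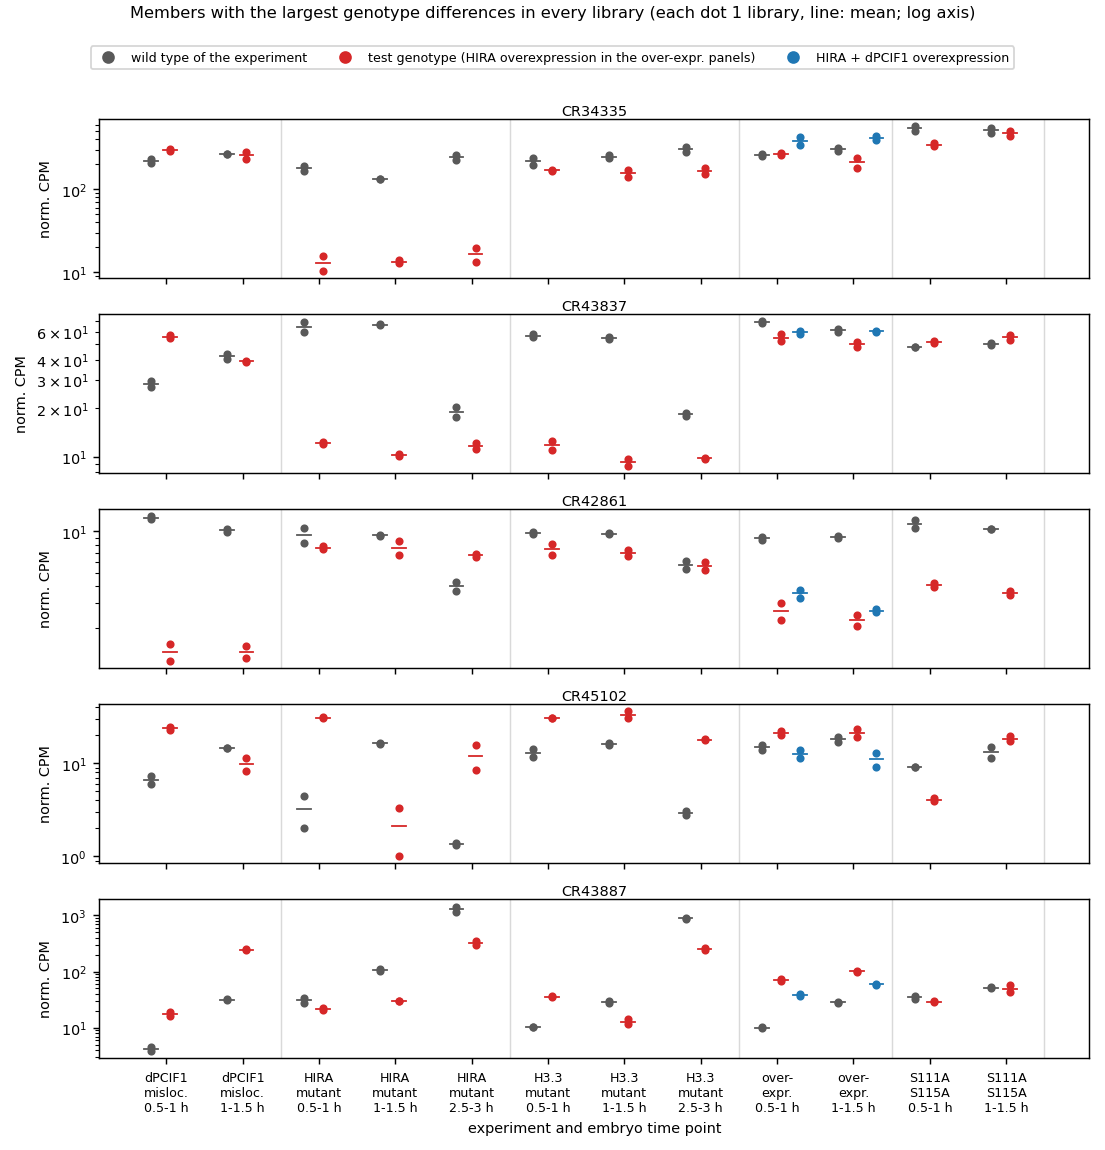
Normalised CPM (log axis) in every library (dots, lines at the mean) of 5 genes with large genotype differences, by experiment and embryo time point, for wild type (grey), the test genotype (red) and HIRA with dPCIF1 (blue). CR34335 is low only in the 6 HIRA mutant libraries, and CR42861 is low in the mislocalization, overexpression and S111A S115A experiments.

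Overexpression of HIRA went with higher levels of CR genes at both time points. At 0.5-1 h 36 of 90 rose and 3 fell, against 9.66% and 5.19% of all genes, and at 1-1.5 h 37 rose and 2 fell, against 17.3% and 6.96%. Late-only genes, which are set by other wild types, rose in 20 of 28 cases and then in 19 of 28, and none fell. Both time points shared 27 genes that rose, and CR42861 fell at both. At 0.5-1 h CR43887 had 67.1 and 74.3 normalised CPM against 10.3 and 9.88, a log2 change of 2.81 ± 0.07 (SE, n = 2 per group, edgeR adjusted p = 3.11e-16), and CR43432 had 27.3 and 28.3 against 3.48 and 4.33 (2.81 ± 0.09). The early zygotic markers summed to 204 and 202 against 47.2 and 48.2 at 1-1.5 h.

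Adding dPCIF1 to HIRA went with fewer higher calls. Against wild type, 24 of 90 rose and 2 fell at 0.5-1 h (6.95% and 5.94% of all genes), and 16 rose and 7 fell at 1-1.5 h (4.96% and 7.02%). The direct comparison of both overexpression genotypes, which does not use wild type, found 3 higher and 13 lower with dPCIF1 at 0.5-1 h (1.73% and 5.48% of all genes) and 3 higher and 29 lower at 1-1.5 h (4.59% and 17%). Late-only genes were lower in 14 of 28 cases at 1-1.5 h. The 3 higher genes at 1-1.5 h were CR44101, CR44049 and CR44179. CR44101 (dntRL) had 31.0 and 25.5 normalised CPM with dPCIF1, 8.57 and 8.26 with HIRA alone and 7.34 and 6.45 in wild type. Its log2 change against wild type was 2.04 ± 0.11 (SE, n = 2 per group, edgeR adjusted p = 3.27e-11). CR44049, antisense to woc, had 26.2 and 31.2 against 5.73 and 7.84 (2.09 ± 0.14), and CR44179, antisense to CG5112, had 7.95 and 9.56 against 2.01 and 1.83 (2.16 ± 0.21). Follicle-cell marker sums were 90.0 and 94.1 normalised CPM in these libraries against 1.78 and 1.96 with HIRA alone and 0.0448 and 0.167 in wild type.

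In S111A S115A embryos at 0.5-1 h 4 of 87 genes rose and 4 fell, against 4.37% and 2.08% of all genes, which is close to the background for the higher calls. With the other wild types as control 29 rose and 4 fell. At 1-1.5 h 16 rose and 4 fell, against 9.24% and 5.34%, with 9 of 28 late-only genes higher and none lower. CR42861 and CR45631 were lower and CR43314 higher at both time points, but CR45631 at 0.5-1 h was not called with the other wild types (-0.37). CR31451 (mimi) had 0.697 and 0.783 normalised CPM against 8.59 and 8.64, but the other wild types at 1-1.5 h were between 0.167 and 1.23, and with them as control its log2 change turned from -3.53 to 0.74.

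The 11 microRNA hosts are primary transcripts from which microRNAs are processed. CR44504 on 2R holds 8 microRNA genes of the mir-309 cluster, whose products clear maternal RNAs in the fly embryo. CR43334 holds bantam, a growth-promoting microRNA. CR43650 holds mir-8, CR42651 mir-10, CR45361 the muscle microRNA mir-1, CR44206 mir-184, CR31044 mir-279 and mir-996, CR43459 mir-277 and mir-34, CR43314 mir-bft, CR31451 mir-9381 and CR43836 mir-31b. Counts on a host include the precursor, except for CR43836, which holds mir-31b within its span but shares no exon sequence with it. No mature microRNA was measured.

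Of the 11 hosts, 7 rose after mislocalization at 0.5-1 h and none fell, where 12% of all genes rose and where the count over all 92 genes turned with other controls. At 1-1.5 h 5 rose and 1 fell (12.7% and 14.5% of all genes). After HIRA overexpression at 1-1.5 h 8 rose and none fell (17.3% and 6.96%). In HIRA mutants at 1-1.5 h 8 fell and none rose (21.2% and 1.96% of all genes). The hosts CR43459 and CR44206 reached 5 CPM only in the HIRA wild type at 2.5-3 h. The wild type of this experiment thus chose them, which can favour lower mutant values, so the host count in HIRA mutants is a description. H3.3 mutants had 4 higher and none lower at 1-1.5 h (12.3% and 1.87%) and 3 in each direction at 2.5-3 h (25.7% and 17.7%). The direct comparison put 8 lower and none higher with dPCIF1 added to HIRA at 1-1.5 h (17% and 4.59%). The bantam host CR43334 had 25.5 and 24.8 normalised CPM after HIRA overexpression, 4.49 and 4.72 with dPCIF1 added and 7.48 and 6.61 in wild type at 1-1.5 h. The higher level with HIRA alone was 1.83 ± 0.09 on the log2 scale over wild type (SE, n = 2 per group, edgeR adjusted p = 9.99e-13), and HIRA with dPCIF1 was -2.45 ± 0.10 from HIRA alone. In HIRA mutants it had 0.900 and 1.17 against 5.22 and 5.33.

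The mir-8 host CR43650 followed the same order, at 6.61 and 8.48, 1.08 and 0.605, and 3.22 and 3.72 normalised CPM at 1-1.5 h, and was -3.08 ± 0.23 lower on the log2 scale with dPCIF1 than with HIRA alone. In HIRA mutants it was lower at all 3 time points, for example 2.90 and 2.78 against 12.6 and 13.6 at 2.5-3 h. The mir-309 cluster host CR44504 rose from between 1.31 and 1.43 in HIRA wild type at 0.5-1 h to 48.5 and 48.0 at 2.5-3 h. It was 18.1 and 21.0 against 4.39 and 5.25 after mislocalization at 1-1.5 h (2.02 ± 0.11), and 9.91 and 10.3 against 2.33 and 2.48 in S111A S115A embryos at 0.5-1 h (2.07 ± 0.15). CR42651, beside the Hox gene Dfd, had 6.81 and 7.35 against 0.676 and 0.886 after mislocalization at 1-1.5 h (3.18 ± 0.20).

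CR43459, beside Fmr1, was called in 12 comparisons, the most of all. At 2.5-3 h it had no count in either HIRA mutant library against 7.83 and 8.61 normalised CPM in wild type. That is at least 46.3-fold lower when the mutant is set at a floor of 3 counts per library. Only this wild-type group took the gene past 5 CPM, and the H3.3 wild type at 2.5-3 h had a mean of 1.42 normalised CPM. The control used here thus chose the gene, which favours a lower mutant value, so the fold is a description. In H3.3 mutants CR43459 had 8.82 and 8.85 against 1.65 and 1.20, a log2 change of 2.61 ± 0.18 that was 0.27 with the other wild type. At 2.5-3 h these levels ran with the larval cuticle genes in the same groups. Those genes were at 0 in HIRA mutants and high in the H3.3 mutant and the HIRA wild type. At the earliest time point the cuticle genes summed to 135 and 133 normalised CPM in the HIRA wild type. CR43459 was then at most 1.28 in any wild-type group. Whether the levels of CR43459 and of the cuticle genes share a source was not tested. CR43836 differed from the other hosts, with higher levels in both mutants at 2.5-3 h: 17.6 and 16.7 against 3.99 and 3.92 in HIRA mutants and 13.3 and 13.9 against 3.46 and 4.60 in H3.3 mutants. It shares exon sequence with CG10962, so its reads are uncertain.

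**Figure D4:**
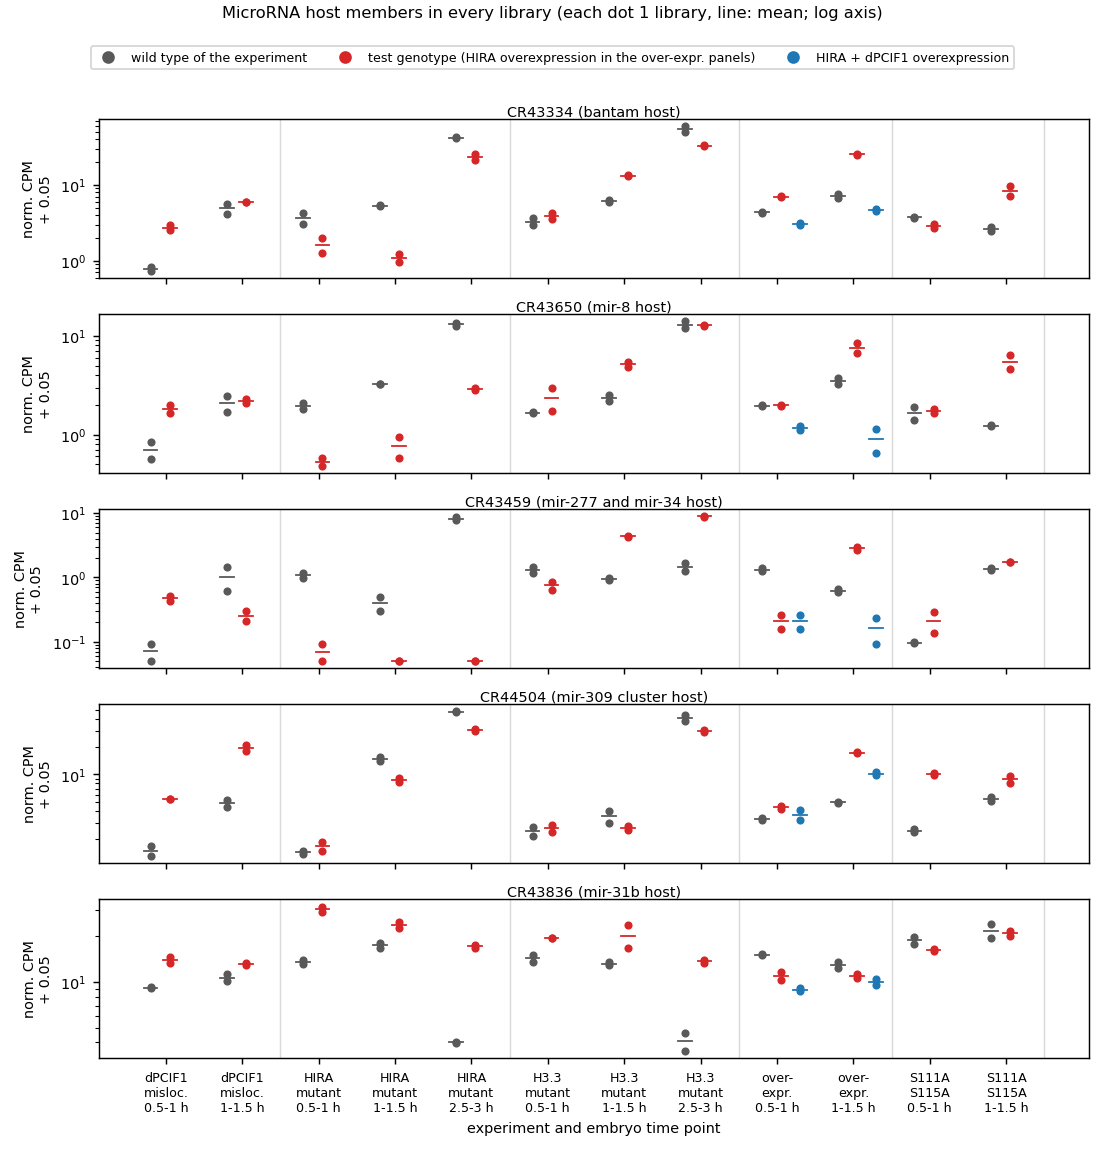
Normalised CPM plus 0.05 (log axis) in every library (dots, lines at the mean) of 5 microRNA hosts by experiment and embryo time point, for wild type (grey), the test genotype (red) and HIRA with dPCIF1 (blue). CR43334 and CR43650 are high with HIRA alone and low with dPCIF1 added at 1-1.5 h, and CR43459 is at the floor in HIRA mutants.

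Of the 30 antisense RNAs, 29 were tested in the overexpression experiment, where 12 rose with HIRA at 0.5-1 h and 11 with dPCIF1 added, and none fell (9.66% and 6.95% of all genes rose). In HIRA mutants the share of antisense RNAs that fell was no larger than among all genes: 4 rose and 4 fell at 0.5-1 h (3.73% and 15.8% of all genes), 2 rose and 6 fell at 1-1.5 h (1.96% and 21.2%), and 4 rose and 7 fell at 2.5-3 h (9.89% and 27.7%). In all, 28 genes formed 37 pairs with a gene on the opposite strand that shares exon sequence, and the partner had the higher mean TPM in 23. Over the 26 groups the Pearson correlation of log2 normalised CPM plus 1 within a pair ran from -0.93 to 0.96 with a median of 0.45. Many groups share a stage or are wild type, so the 26 values are not independent. CR44119 and SLC5A11 gave the lowest value, and CR45270 and grh were among the highest. In H3.3 mutants at 2.5-3 h, of 35 pairs tested, 3 changed in the same direction, 4 in opposite directions and 11 only in the CR gene. All other comparisons had at most 1 pair in opposite directions. Mislocalized embryos at 1-1.5 h had 4 pairs in the same direction and 1 opposite, of 31. After HIRA overexpression at 1-1.5 h, 4 pairs changed in the same direction and 0 in opposite directions, of 30. Shares over other gene pairs were not counted. The library kit keeps strand, but the strand setting used in counting is not given in the sources used here, so reads of a pair may be mixed.

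As a comparison list, 15 of 24 lncRNAs with names of their own, such as roX1, roX2 and Hsromega, were found under those names. At 1-1.5 h 6 of 13 tested rose after HIRA overexpression and none fell (17.3% and 6.96% of all genes), and 4 of 11 rose after mislocalization and none fell (12.7% and 14.5%). In HIRA mutants 6 of 15 fell and none rose (21.2% and 1.96%). In H3.3 mutants 5 of 13 rose and 1 fell at 1-1.5 h (12.3% and 1.87%), and 1 rose and 7 fell at 2.5-3 h (25.7% and 17.7%).

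**Figure D5:**
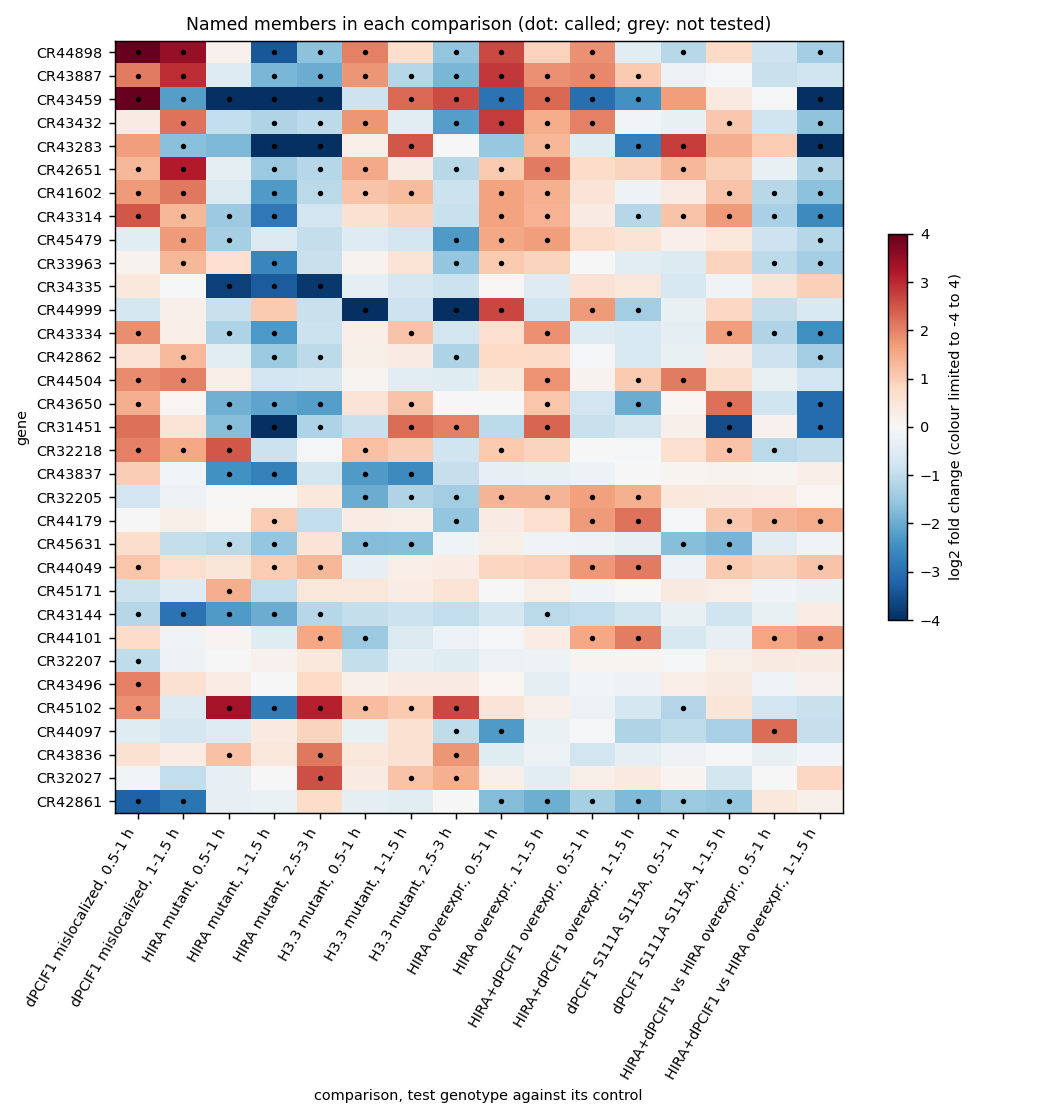
Log2 fold change (colour, limited to -4 and 4) of 33 genes chosen by a fixed rule in the 16 genotype comparisons; dots mark calls and grey cells were not tested. Rows such as CR43887 and CR43432 are higher in HIRA overexpression and, at 1-1.5 h, mislocalized embryos and lower in HIRA mutants at 1-1.5 h, and CR42861 is lower in 8 comparisons.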

How the data were processed

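RNA was extracted from pools of embryos in 26 groups, depleted of ribosomal RNA and sequenced from a strand-specific kit, as the study's methods state, although the sample labels name polyadenylated RNA. The authors trimmed reads (Trimmomatic 0.39), aligned them to dm6 with STAR 2.7.10a and deposited RSEM 1.3.1 expected counts and TPM per gene for each library. Their own comparisons, run with DESeq2 1.40.2, were not used. Expected counts were rounded here and tested with edgeR 4.0.16 in R 4.3.3 (quasi-likelihood, TMM factors of 0.918 to 1.18, filterByExpr with a minimum count of 10), each experiment in 1 fit with a coefficient per group, with Benjamini-Hochberg adjustment over all genes tested. Printed levels are normalised CPM, the count as a share of the library total times its TMM factor, on the CPM scale, except where CPM or TPM is named, and a standard error is the fold change over the square root of F. With 2 pools per group, each test sets a fold change against the spread between pools of the same group, estimated over all groups of the experiment. Differences between the wild types of separate experiments are not part of that spread, so the adjusted p values do not cover them. The tests were tried on simulated data.

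Gene models and names came from RefSeq (Release 6), where 86 genes matched by accession and 6 by symbol. Named genes were the 5 highest in wild type, up to 3 called higher and 3 lower per comparison of at least 5 CPM with no overlap of libraries, the 3 called most often and the 3 highest late-only genes. Others named were chosen after their values were seen: CR30055, CR43961 and CR43973, and the genes that stand in counts, structure groups or microRNA lists. The gene groups and lists were chosen with earlier results of these data known, and the larval cuticle list was also added with the levels in view. The alternatives tried were DESeq2 1.42.0, library totals in place of TMM, no filter, the 2 groups alone, a replicate block, the wild types of other experiments, no fold threshold, a list chosen by other wild types, and each library left out. Promoter and microRNA sequences were not analysed here.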

Additional observations from a re-analysis of the deposited data

Results flagged for a closer look

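The genotype effect on a CR gene could differ between time points, tested as an interaction term in the same edgeR fits with adjustment over all genes. In H3.3 mutants 51 of 92 genes had a different effect at 2.5-3 h than at 1-1.5 h, 42 more negative and 9 more positive, against 16.3% and 11.8% of all genes. In HIRA mutants 27 genes differed between the same time points, 24 more positive and 3 more negative (14% and 6.65% of all genes), and 20 differed between 0.5-1 h and 1-1.5 h, all more negative at the later one (7.12% of all genes). Over the 73 genes that also reach 5 CPM in the wild type of another experiment, these counts were 22 (20 more positive and 2 more negative) and 15 (all more negative).

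Between 0.5-1 h and 1-1.5 h the effect of dPCIF1 mislocalization differed for 24 genes, 11 more positive and 13 more negative later, against 5.4% and 10.7% of all genes. It differed for 17 after HIRA overexpression (10 and 7, against 7.56% and 6.94%), 9 with dPCIF1 added (1 and 8, against 0.992% and 4.65%), 14 with S111A S115A (12 and 2, against 4.88% and 2.96%) and 10 in H3.3 mutants (4 and 6, against 7.47% and 2.61%).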

How the results depend on the processing

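Counts of called CR genes stayed within 1.5 times for all 23 comparisons with DESeq2, with library totals in place of TMM, with no filter on low counts and with only the 2 groups compared, and for all 16 genotype comparisons with a list chosen by other wild types. A replicate block did the same, with 21 genes in HIRA mutants at 0.5-1 h and 55 in H3.3 mutants at 2.5-3 h. Deviations of same-numbered libraries had a median correlation of 0.001 in the HIRA experiment (-0.282 to 0.667) and 0.027 in the H3.3 experiment (-0.226 to 0.332). The highest value in the other experiments was 0.211, and every experiment also held negative values. Pairing of some groups is thus neither shown nor excluded. The block changed no call of the 85 for named genes.

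Without the fold threshold 17 counts were larger. They were 49 and 67 after mislocalization at 0.5-1 h and 1-1.5 h, 35 and 70 in HIRA mutants at 0.5-1 h and 2.5-3 h, 41 and 35 in H3.3 mutants at 0.5-1 h and 1-1.5 h, and 67 after HIRA overexpression at 1-1.5 h. With dPCIF1 added they were 42 and 41 against wild type and 42 and 59 against HIRA alone, and with S111A S115A 22 and 42. Between 0.5-1 h and 1-1.5 h of wild type they were 51, 23, 29 and 10 in the mislocalization, H3.3, overexpression and S111A S115A experiments.

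With the wild types of other experiments as control, 12 genes were called after mislocalization at 0.5-1 h, of which 6 were among the 27 called before, 23 in H3.3 mutants at 1-1.5 h and 33 with S111A S115A at 0.5-1 h. Among 73 named differences with such a control, 1 reversed (CR31451 with S111A S115A at 1-1.5 h, 0.74) and 16 were no longer called.

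Leaving out each library in turn gave 14 to 22 genes in HIRA mutants at 0.5-1 h, and, between 0.5-1 h and 1-1.5 h, 17 to 23 in the HIRA wild type, 9 to 13 in the H3.3 wild type and 9 to 17 in the overexpression wild type. The other 19 counts stayed within 1.5 times. The cause of these shifts was not tested.

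Depth limits the low genes: 3 counts correspond to between 0.0895 and 0.215 normalised CPM per library, and lower levels were not detectable.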

Other observations

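CR43961 and CR43973, chosen after their values were seen, were low in wild type at 2.5-3 h and higher in both mutants. CR43961 had 6.80 and 5.92 normalised CPM against 2.21 and 2.21 in HIRA mutants, and 5.34 and 4.56 against 1.56 and 1.43 in H3.3 mutants. CR43973 had 3.72 and 3.19 against 1.25 and 1.45, and 2.90 and 4.59 against 1.08 and 1.14. Both genes lie within the span of a coding gene, Ten-a and Ctps.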
